A study of Drosophila melanogaster with 12 samples.

Results

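Male flies of 2 generations were compared without any drug in either. Males of the F1 generation, the sons of fathers and mothers that had both been given sucrose, were set against males that had been given sucrose themselves, with 3 arrays of 8 pooled whole flies in each group. These are 6 of the 12 arrays of a study of how Drosophila melanogaster varies in its response to methylphenidate, a stimulant drug known to act on the dopamine transporter. The other 6 arrays were 3 of F1 males whose fathers had received sucrose and whose mothers had received methylphenidate, and 3 of males given methylphenidate. Exposure lasted 24 hours in the exposed males. All 4 groups are labelled as wild type males. The labels give neither the strain, nor the age of the flies, nor what the F1 males themselves ate. The study's design text describes all 6 F1 samples as sons of drug-exposed mothers, whereas the sample labels name 2 crosses, and the labels were followed here. Food, age, handling and array processing may all differ with the generation and cannot be told apart from it. Whether the 3 pools of a group came from separate cultures is not stated, and all p-values rest on the spread among these pools, which may be technical.

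The abundance of many fly transcripts depends on age and feeding. The fat body, the organ that stores lipid and glycogen, still holds larval cells in freshly emerged adults, and adult cuticle is laid down around emergence. Enterocytes of the midgut secrete peptidases, carbohydrases and lipases, whose transcript levels follow the diet. Sugar-sensing factors, insulin and adipokinetic hormone set the balance between storage and mobilisation of fat. Spermatogenesis and the accessory glands, which make seminal fluid proteins, take up a large part of the male transcriptome.

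The values were log2 signals of Affymetrix Drosophila Genome 2.0 probe sets, and a difference is F1 males minus sucrose-exposed males, with its standard error (SE) from limma. A gene with a mean signal under 0.5 in both groups is called dim, and differences at such levels are understated. Within each group the arrays had pairwise correlations between 0.995 and 0.997. Their median signal was 1.37 on replicate 3 of the F1 males, against 1.51 to 1.56 on the other 5 arrays. Of 3 bacterial spike-in controls, added in fixed amounts, BioB and Dap were brighter on all 3 arrays of F1 males, and Cre overlapped (9.94 ± 0.0505 in F1 males and 9.86 ± 0.0758 in sucrose-exposed males, SD, n = 3 each, with an exact permutation p of 0.3). BioB was at 4.34 ± 0.0787 in F1 males against 4.06 ± 0.148 in sucrose-exposed males, and Dap at 3.58 ± 0.0675 against 3.22 ± 0.117 (SD, n = 3 each). A two-sided exact permutation test gave p = 0.1 for both, the smallest that 3 against 3 arrays allow. Between the 3′ and 5′ GAPDH control probe sets, a measure of RNA integrity, the signal difference was 1.54 ± 0.0439 in F1 males and 1.62 ± 0.0860 in sucrose-exposed males (SD, n = 3 each), with an exact permutation p of 0.3. The part of these measures in the results below was not tested beyond a fit with the GAPDH difference as a covariate.

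Many genes differed, most of them by little. Of 18769 probe sets, 3854 (20.5%) passed a Benjamini-Hochberg adjusted p under 0.05 in limma, 1188 higher (6.33%) and 2666 lower (14.2%) in F1 males. The values of the 3 and 3 arrays did not overlap for 3748 of these, and for 32.9% of all probe sets. Increases were fewer but larger: 135 probe sets were over 2-fold higher and 8 over 2-fold lower, and the median log2 difference of the calls was 0.47 among the increases and -0.40 among the decreases. With 1 probe set for each of 11982 genes, 1034 genes (8.63%) were higher and 2277 (19.0%) lower, the values did not overlap for 41.1%, and the median over all genes was -0.06. The split depended on scaling. After each array was centred on its median, 1740 probe sets were higher and 1779 lower, and after quantile normalization 1557 and 2091, so that increases made up 49.4% and 42.7% of the calls in place of 30.8%. In whole flies, fewer cells of a type and less RNA per cell cannot be told apart.

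**Figure D1:**
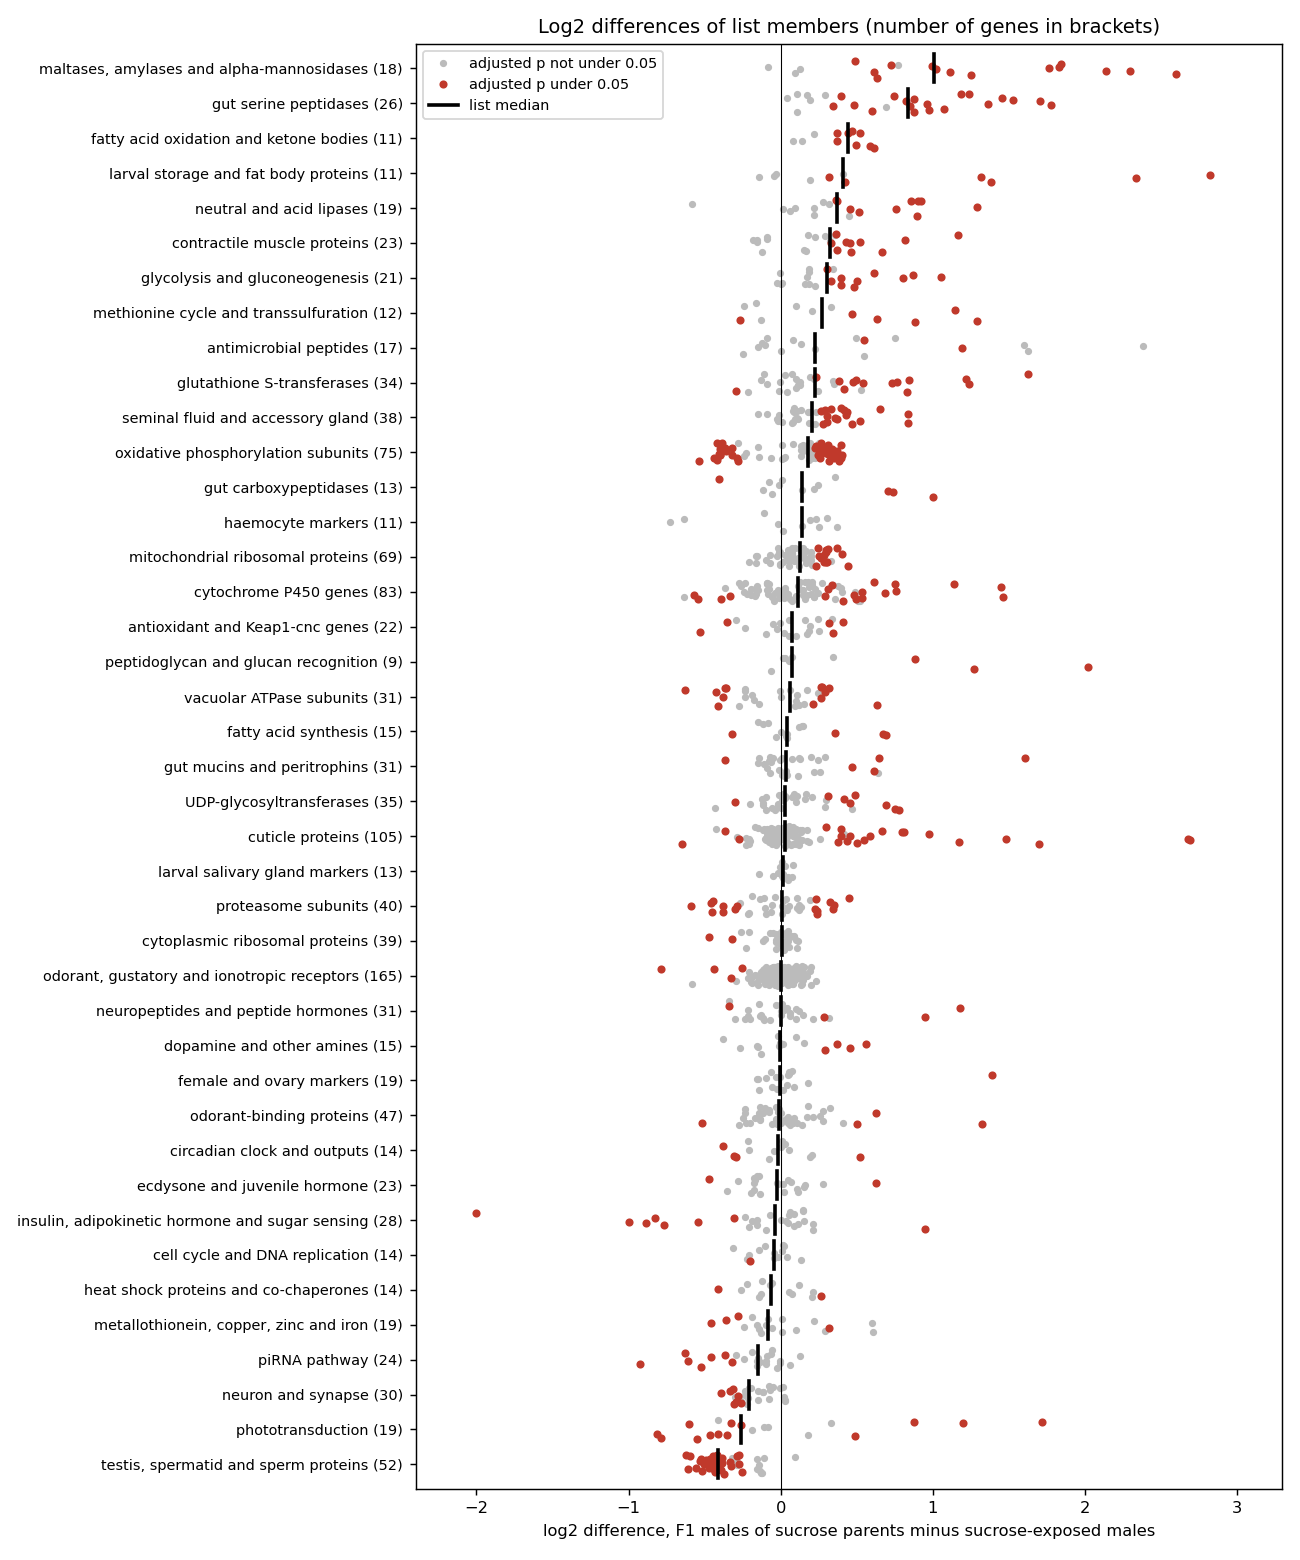
Log2 differences (x axis, F1 males of sucrose parents minus sucrose-exposed males) of the members of each gene list with 9 or more genes (y axis, ordered by median). Each point is a gene, red where its adjusted p was under 0.05, and black bars are list medians; carbohydrases (median 1.01) and gut peptidases (0.84) lie at the top and testis genes (-0.41) at the bottom.

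Transcripts of the fat body and of cuticle had the largest increases. Fbp2, a fat body protein, had log2 signals of 3.77, 4.03 and 2.25 in F1 males, against 0.66, 0.53 and 0.40 in sucrose-exposed males, 7.07-fold higher (log2 2.82 ± 0.45 SE, limma adjusted p = 0.00115). The groups lay far apart, and the third F1 array was the lowest of its group. Fbp1, the receptor through which larval fat body takes up storage proteins, had 3.29, 3.04 and 1.88 in F1 males against 0.40, 0.47 and 0.32 in sucrose-exposed males (5.06-fold higher, adjusted p = 0.00193). All 3 arrays of sucrose-exposed males were under 0.5 for Fbp1.

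Of 11 measured storage and fat body genes, 6 rose and none fell, with a median log2 difference of 0.41. The alcohol dehydrogenase-like gene Sodh1 (2.50-fold) and apolpp, the precursor of the main lipoprotein of the haemolymph (1.34-fold), were among them. Lsp2, a larval storage protein, had 8.88, 8.16 and 7.97 in F1 males against 6.76, 6.26 and 7.83 in sucrose-exposed males (log2 1.38 ± 0.37 SE, adjusted p = 0.0161). One of the sucrose-exposed arrays nearly reached the F1 values, and the call was lost under 6 of 16 alternative settings, among them leaving out replicate 1 of either group or replicate 2 of the sucrose-exposed males. Salivary gland genes of larvae were dim in both groups: all 13 measured, Sgs3 and Sgs8 among them, were under 0.5.

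Acp65Aa, a protein of adult cuticle, had 4.36, 4.74 and 4.04 in F1 males against 2.07, 1.71 and 1.29 in sucrose-exposed males (6.46-fold higher, log2 2.69 ± 0.25 SE, adjusted p = 4.6e-05). Cpr92F, also of cuticle, had 5.97, 6.39 and 5.82 in F1 males against 3.84, 3.59 and 2.71 in sucrose-exposed males (6.41-fold higher, adjusted p = 0.00581). For both genes every F1 array was above every array of the other group. Of 105 cuticle genes 18 rose, 3 fell and 64 were dim. The median log2 difference was 0.03, with 42 of the 105 below 0. Cpr62Bc (3.24-fold), Cpr49Ae (2.25-fold) and Cpr47Ea (1.97-fold) were higher. The count of increases was 9 with the GAPDH covariate and 11 without replicate 2 of the F1 males.

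**Figure D2:**
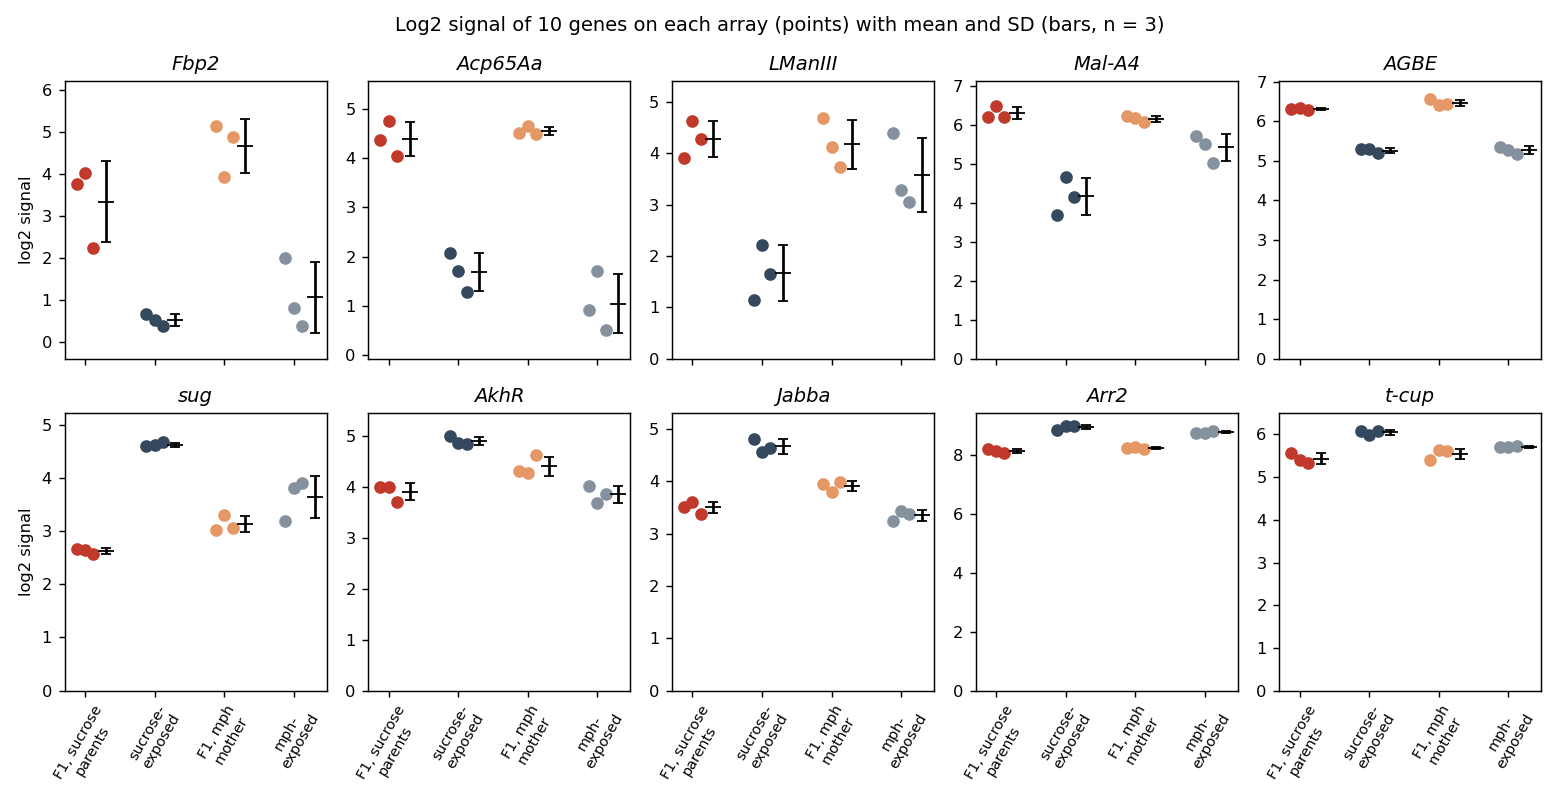
Log2 signal (y axis) of 10 genes on each array, with F1 males of sucrose parents left of sucrose-exposed males and the 2 methylphenidate groups (mph) to their right; points are arrays and bars the mean and SD (n = 3). Fbp2, Acp65Aa and AGBE are high in both F1 groups and low in both exposed groups, while LManIII is low, and sug, AkhR and Jabba are high, in sucrose-exposed males against the other 3 groups.

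Most carbohydrases were higher in F1 males. Of 18 maltases, amylase relatives and α-mannosidases, 14 rose and none fell, and the median log2 difference was 1.01. LManIII, a lysosomal-type α-mannosidase, had 3.92, 4.62 and 4.28 in F1 males against 1.14, 2.22 and 1.66 in sucrose-exposed males (6.07-fold higher, log2 2.60 ± 0.34 SE, adjusted p = 0.00041). Mal-A4, a maltase, had 6.22, 6.50 and 6.22 in F1 males against 3.69, 4.67 and 4.15 in sucrose-exposed males (4.41-fold higher, adjusted p = 4.6e-05). The groups did not overlap for either gene, and replicate 2 of the sucrose-exposed males was the highest of its group for both. LManVI (4.92-fold), Mal-A3 (3.399-fold), Mal-A2 (log2 0.997) and Mal-A1 (1.40-fold) were higher as well, while Mal-A5 (log2 0.13), Mal-B2 (-0.08) and the dim LManIV (0.10) were not called.

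Of 26 gut serine peptidases, 19 rose and none fell, with a median of 0.84. The count was 13 without replicate 1 of the sucrose-exposed males and 14 with the GAPDH covariate. Jon25Biii, a chymotrypsin-like enzyme, had 8.59, 8.53 and 8.37 in F1 males against 7.12, 7.35 and 7.31 in sucrose-exposed males (2.36-fold higher, adjusted p = 0.000126). The trypsins epsilonTry (2.57-fold), etaTry (1.97-fold) and kappaTry (1.83-fold) were higher too. The trypsin alphaTry, with 9.72, 9.70 and 9.64 in F1 males against 9.49, 9.56 and 9.68 in sucrose-exposed males, was not called (adjusted p = 0.416). CG18179, a serine peptidase homologue and 1 of the 15 largest increases, had 4.19, 4.98 and 5.17 in F1 males against 1.34, 3.60 and 3.47 in sucrose-exposed males. Its difference (log2 1.98 ± 0.51 SE, adjusted p = 0.013) was 1.25 without the low first array of the sucrose-exposed males (adjusted p = 0.0438), and the call was lost under 3 of 16 settings, among them leaving out replicate 3 of the F1 males.

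Lipases gave 10 increases and no decrease among 19 genes, with a median of 0.37. They included CG8093 (2.45-fold), CG31091 (1.90-fold), mag, the secreted lipase magro (1.87-fold), and CG6283 (1.81-fold). The count was 5 with the GAPDH covariate, and 6 when replicate 3 of the F1 males or replicate 1 or 3 of the sucrose-exposed males was left out. Of 13 carboxypeptidases 3 rose, CG4408 most (log2 1.003), and 1 fell; without replicate 1 of the sucrose-exposed males 1 rose. Of 31 gut mucins and peritrophins, which line the gut, 4 rose (12.9%, beside 8.63% of all genes) and 1 fell, and 16 were dim. Their median was 0.04, with 12 of the 31 below 0. Peritrophin-15a had 5.87, 6.27 and 5.99 in F1 males against 4.11, 5.05 and 4.15 in sucrose-exposed males (3.05-fold higher, adjusted p = 0.000896).

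Several genes of sugar sensing, adipokinetic hormone signalling and lipid droplets were lower in F1 males, while the lipase gene bmm was called higher. The transcription factor sug (sugarbabe), which sugar feeding is known to induce, had 2.66, 2.64 and 2.56 in F1 males against 4.60, 4.61 and 4.67 in sucrose-exposed males (4.02-fold lower, log2 -2.01 ± 0.14 SE, adjusted p = 4.1e-06). Cabut (cbt), another sugar-responsive factor, had 5.76, 5.78 and 5.71 in F1 males against 6.45, 6.61 and 6.66 in sucrose-exposed males (log2 -0.83 ± 0.08 SE, adjusted p = 4.8e-05). The arrays of a group lay close together for both genes, and the groups lay well apart. AkhR, the receptor of adipokinetic hormone, which mobilises stored fat, had 4.003, 4.001 and 3.72 in F1 males against 4.999, 4.87 and 4.85 in sucrose-exposed males (log2 -0.9996 ± 0.11 SE, adjusted p = 0.000168).

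The perilipin Lsd-1, which guards the surface of lipid droplets, had 6.01, 6.19 and 5.78 in F1 males against 6.85, 6.92 and 6.86 in sucrose-exposed males (log2 -0.88 ± 0.11 SE, adjusted p = 0.000316). Jabba, which anchors histones to lipid droplets, had 3.52, 3.60 and 3.38 in F1 males against 4.82, 4.55 and 4.63 in sucrose-exposed males (2.24-fold lower, adjusted p = 9.0e-06). The activin-like ligand daw (dawdle) was 1.70-fold lower, the insulin receptor InR 1.46-fold lower and the Mondo partner bigmax 1.24-fold lower. Over the whole list of 28 insulin, adipokinetic hormone and sugar-sensing genes, 7 fell and 1 rose, a share near the 19.0% lower and 27.6% called over all genes, and the median was -0.03. The exception was fit, a satiety signal of the fat body (log2 0.95 ± 0.27 SE, adjusted p = 0.0212), a call lost under 5 of 16 settings, among them leaving out replicate 1 or 2 of the F1 males or replicate 2 of the sucrose-exposed males. The insulin-like peptides did not pass: Ilp2 differed by 0.00 ± 0.09, Ilp5 by 0.15 ± 0.12 and Ilp7 by 0.11 ± 0.11 (SE), nor did Akh itself (-0.23 ± 0.09).

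Enzymes of central carbon metabolism were higher where they differed. Of 21 genes of glycolysis, gluconeogenesis and glycogen, 10 rose and none fell, with a median of 0.31. AGBE, the glycogen branching enzyme, had 6.31, 6.33 and 6.30 in F1 males against 5.30, 5.30 and 5.19 in sucrose-exposed males (2.07-fold higher, log2 1.05 ± 0.07 SE, adjusted p = 4.0e-06). Both groups were tight, with a wide gap between them. The gluconeogenic fructose-bisphosphatase fbp (1.75-fold), the fat body hexokinase Hex-C (1.53-fold) and glycogen synthase Glys (1.42-fold) followed. Pfk, the committed step of glycolysis, differed by 0.01 ± 0.07 (SE) and the trehalose synthase Tps1 by 0.00 ± 0.06. After median centring 15 of the 21 were called.

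Of 11 genes of fatty acid oxidation 8 rose and none fell, with a median of 0.44. Among them were yip2, a thiolase (1.53-fold), the peroxisomal oxidase Acox57D-d (log2 0.59), Mtpbeta, a subunit of the mitochondrial trifunctional protein (1.43-fold), and wal, an electron transfer flavoprotein subunit (1.36-fold). The carnitine palmitoyltransferase whd, which admits fatty acids to mitochondria, was not called (log2 0.08 ± 0.07 SE). The count was 4 with the GAPDH covariate. Of 15 genes of fat synthesis 3 rose and 1 fell: mdy, which makes triacylglycerol (1.59-fold), FASN3 (1.62-fold) and Agpat3 (1.28-fold) were higher, and FASN1, the fatty acid synthase of the fat body, was lower (log2 -0.32, adjusted p = 0.0072).

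Part of one-carbon metabolism and purine synthesis was higher. Of 12 genes of the methionine cycle, transsulfuration and folate, 5 rose and 1 fell. Shmt, which loads folate with a carbon from serine, had 7.09, 7.25 and 7.06 in F1 males against 5.98, 5.999 and 5.97 in sucrose-exposed males (2.22-fold higher, adjusted p = 0.000632). The folate enzymes pug (1.85-fold), Nmdmc (2.44-fold) and Mthfs (1.55-fold) rose with it, as did Cth of transsulfuration (log2 0.47, adjusted p = 0.00307). AhcyL1 fell (log2 -0.27, adjusted p = 0.0133), and Sam-S (log2 -0.24) and Gnmt (-0.13) were not called.

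Folate carbons enter the purine ring, so 9 purine synthesis genes were looked at after their values were seen. Of these 5 were higher and none lower. Gart, a multifunctional purine enzyme, had 4.88, 5.21 and 5.17 in F1 males against 3.09, 3.42 and 3.43 in sucrose-exposed males (3.42-fold higher, adjusted p = 0.000582). Pfas (1.88-fold), Adsl (1.86-fold), Paics (1.56-fold) and Prat2 (1.33-fold) were higher, and Prat, Adss, ras and bur were not called. The call of Prat2 was lost under 5 of 16 settings. Among them were leaving out replicate 1 or 2 of the F1 males or replicate 2 or 3 of the sucrose-exposed males. Adss, ras and bur act after the branch point at which inosine monophosphate is turned into adenine or guanine nucleotides.

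Part of the detoxification enzymes were higher. Of 34 glutathione S-transferases 13 rose and 1 fell (median 0.23), of 83 cytochrome P450 genes 15 rose and 4 fell (median 0.11), and of 35 UDP-glycosyltransferases 7 rose and 1 fell (median 0.03). Cyp309a1 had 4.36, 4.32 and 4.38 in F1 males against 2.68, 2.97 and 3.06 in sucrose-exposed males (2.73-fold higher, adjusted p = 4.0e-06). GstD5 had 4.30, 4.48 and 4.41 in F1 males against 2.97, 2.99 and 2.35 in sucrose-exposed males (3.09-fold higher, adjusted p = 0.000878). Cyp4s3 (2.20-fold), GstD8 (2.36-fold), GstE5 (1.80-fold), GstE6 (1.66-fold), Ugt35C1 (1.71-fold) and Ugt37B1 (1.68-fold) were higher too. The P450 count was 9 with the GAPDH covariate and 9 without replicate 2 of the F1 males or replicate 1 of the sucrose-exposed males. Among 22 antioxidant genes 3 rose, Cat, Sod2 and Prx3, by 0.32 to 0.41 on the log2 scale, and 2 fell.

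Immune genes set 1 array apart. Over 17 antimicrobial peptide genes the mean log2 signal was 3.29, 4.68 and 3.12 in F1 males, against 3.18, 3.13 and 3.20 in sucrose-exposed males. Replicate 2 of the F1 males had the highest value of the 6 arrays for 12 of the 17. Metchnikowin (Mtk), named here after its values were seen, had 2.15, 8.44 and 1.19 in F1 males against 0.96, 2.27 and 1.41 in sucrose-exposed males (adjusted p = 0.354). DptB, a diptericin, and edin behaved alike: DptB had 1.59, 6.91 and 1.28 in F1 males against 1.86, 1.64 and 1.40 in sucrose-exposed males, and edin had 0.08, 5.24 and 0.20 against 0.31, 0.24 and 0.18.

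Of the 17 genes, 2 were called and both were higher. Def, the insect defensin, had 2.95, 3.74 and 2.14 in F1 males against 1.91, 1.34 and 1.999 in sucrose-exposed males (2.28-fold higher, adjusted p = 0.0102, and 0.0353 without replicate 2 of the F1 males). AttD, dim with means of 0.483 in F1 males and -0.0628 in sucrose-exposed males, passed with a log2 difference of 0.55 (adjusted p = 0.0403, and 0.141 without that array), a call lost under 8 of 14 settings and on leaving out any array but replicate 3 of the F1 males. Drosomycin (Drs) did not pass (log2 0.75 ± 0.36 SE, adjusted p = 0.175).

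Of 9 recognition genes 3 rose, all of them peptidoglycan recognition proteins, and the median over the list was 0.07. PGRP-SB1, which cleaves peptidoglycan, had 5.24, 6.99 and 5.33 in F1 males against 3.68, 3.95 and 3.87 in sucrose-exposed males (4.05-fold higher, adjusted p = 0.00249, and 0.00548 without replicate 2 of the F1 males). The amidases PGRP-SC2 (log2 1.27) and PGRP-LB (0.89), which damp the response to gut bacteria, also rose. Replicate 2 of the F1 males was the highest array for 7 of the 9. None of 5 Turandot stress peptides and none of 11 haemocyte genes was called in limma, with 0 and 3 at an unadjusted p under 0.05. The haemocyte marker Hml had 4.48, 4.56 and 3.90 in F1 males against 4.10, 4.11 and 4.03 in sucrose-exposed males, which overlap.

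**Figure D3:**
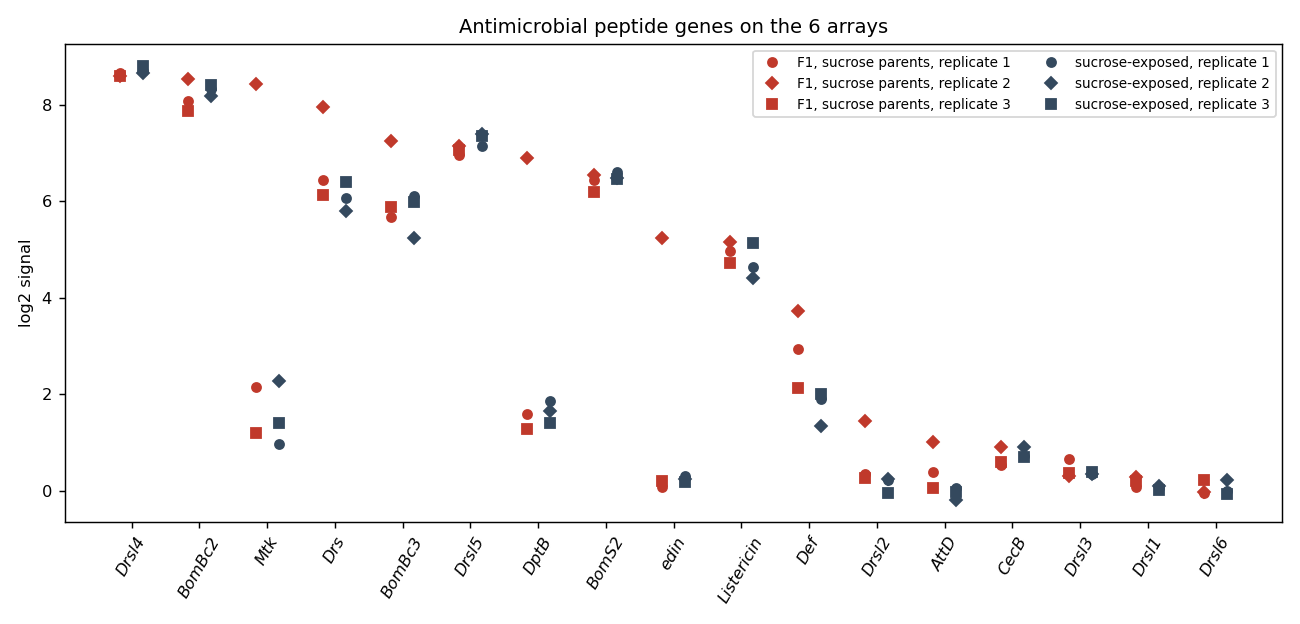
Log2 signal (y axis) of 17 antimicrobial peptide genes (x axis) on the 6 arrays, F1 males of sucrose parents in red left of sucrose-exposed males in blue; the symbol gives the replicate. The red diamonds of replicate 2 of the F1 males stand above all other points for Mtk (8.44), DptB (6.91) and edin (5.24).

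Testis genes were lower as a body, each by a small amount. Of 52 testis, spermatid and sperm genes 40 fell and none rose, 51 had a difference below 0, and the median was -0.41. The values of 44 lay lower without overlap, against 27.3% of all genes. The spermatid transcript t-cup had 5.57, 5.41 and 5.33 in F1 males against 6.09, 5.98 and 6.08 in sucrose-exposed males (1.53-fold lower, log2 -0.61 ± 0.08 SE, adjusted p = 0.000491). Mst77F, which packs sperm chromatin, had 9.10, 9.12 and 8.98 in F1 males against 9.67, 9.53 and 9.57 in sucrose-exposed males (1.44-fold lower, adjusted p = 0.000698). Values did not overlap for either gene. All 5 testis markers were lower: betaTub85D, the sperm tubulin, had 8.17, 8.09 and 7.97 in F1 males against 8.58, 8.40 and 8.49 in sucrose-exposed males. The count was 33 to 40 over all settings.

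Duplicate copies of housekeeping subunits were lower too, in a grouping by symbol made after the values were seen. Many Drosophila subunits of the respiratory chain and the proteasome have a second gene copy, often expressed in the testis. Of 21 such copies in the respiratory chain and ATP synthase 15 fell and none rose (median -0.36), whereas of the 54 other members 23 rose and none fell (median 0.21). COX6AL2, a copy, differed by -0.54, and COX7A and ND-75, other members, by 0.37 and 0.40. In the proteasome 8 of 14 copies fell and none rose (median -0.29), whereas 8 of 26 other members rose and none fell (median 0.11). Without replicate 1 of the sucrose-exposed males 4 proteasome genes fell and 4 rose, and with the GAPDH covariate 3 and 3. The increases were also 4 in a fit of the 2 groups only and 5 without replicate 3 of the sucrose-exposed males. The copy Prosbeta4R1 differed by -0.59, and its counterpart Prosbeta4 by 0.35.

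**Figure D4:**
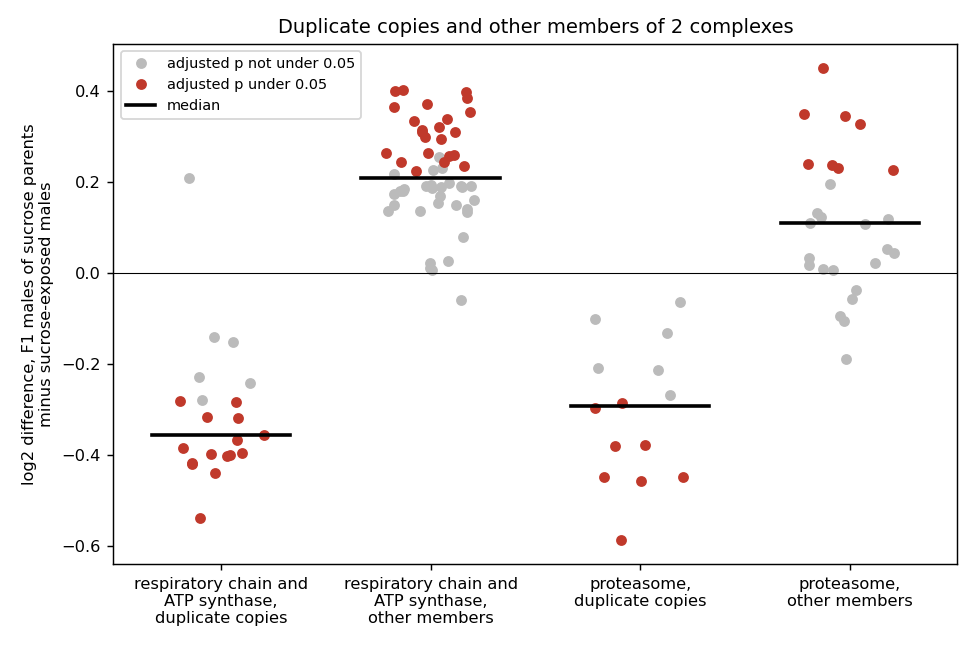
Log2 differences (y axis, F1 males of sucrose parents minus sucrose-exposed males) of duplicate copies and other members of the respiratory chain with ATP synthase and of the proteasome (x axis). Red points had an adjusted p under 0.05 and bars are medians; the copies lie lower (medians -0.36 and -0.29) than the other members (0.21 and 0.11).

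The counts among mitochondrial genes depended on settings. The respiratory chain list as a whole had 15 decreases, 10 with the GAPDH covariate and 11 to 17 when 1 array was left out. It had 23 increases, 5 with the covariate, 44 after median centring and 10 to 31 when 1 array was left out (10 without replicate 2 of the F1 males). Mitochondrial ribosomal proteins gave 14 increases and no decrease among 69 genes (median 0.13), with 3 under the covariate and 4 without replicate 1 of the sucrose-exposed males. Of 31 vacuolar ATPase subunits 7 rose and 6 fell, beside 8.63% and 19.0% of all genes. The increases were 4 without replicate 2 of the F1 males or replicate 1 of the sucrose-exposed males, and 2 with the covariate. Vha100-5 (1.55-fold higher) and Vha14-2 (log2 -0.63) were those with the smallest p in each direction. Of 39 cytoplasmic ribosomal proteins none rose and 2 fell, RpL10Aa and RpS28-like.

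The piRNA pathway, which silences transposons in the germline, gave 7 decreases and no increase among 24 genes, 11 of them dim. The decreases were 29.2% of the list, beside 19.0% of all genes, and the median log2 difference was -0.15. The nuclear factor del (deadlock) had 2.14, 1.63 and 1.27 in F1 males against 2.57, 2.68 and 2.56 in sucrose-exposed males (1.90-fold lower, adjusted p = 0.00199). The F1 arrays varied more than the others, and all lay below them. Hen1 (log2 -0.63), vret (-0.61) and AGO3 (-0.46) were lower too, while the dim piwi (-0.00 ± 0.10 SE) and vas (-0.06 ± 0.06) did not pass.

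Accessory gland genes went the other way from testis genes. Of 38 seminal fluid genes 17 rose and none fell, with a median of 0.21 (11 increases without replicate 1 of the sucrose-exposed males). The serpin Spn77Bb (1.79-fold), Sfp38D (1.44-fold), Acp26Aa, a prohormone that stimulates ovulation (1.38-fold), and Dup99B (1.34-fold) rose. The sex peptide gene SP did not pass, with 9.53, 9.50 and 9.47 in F1 males against 9.46, 9.48 and 9.53 in sucrose-exposed males.

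Contractile genes were higher in part. Of 23 muscle genes 10 rose and none fell (median 0.33). Act88F, the actin of indirect flight muscle, had 8.80, 8.94 and 8.53 in F1 males against 7.56, 7.75 and 7.46 in sucrose-exposed males (2.25-fold higher, adjusted p = 0.00187). The flight muscle gene fln (1.76-fold), the troponin C gene TpnC73F (1.44-fold) and up, troponin T (1.38-fold), rose too. The giant proteins sls (log2 -0.09) and bt (-0.09) and the Z-disc protein Zasp66 (-0.18) were not called. The count was 5 without replicate 2 of the F1 males, 6 without replicate 1 or 3 of the sucrose-exposed males, and 14 after median centring.

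Female markers were dim in both groups, with Yp3 as the exception among 7. Ovary markers such as osk (0.04 in F1 males and -0.02 in sucrose-exposed males), Cp36 (0.15 and 0.21) and Cp16 were dim, as were the yolk proteins Yp1 and Yp2. Yp3 had 2.97, 3.62 and 2.97 in F1 males against 2.03, 1.62 and 1.74 in sucrose-exposed males (2.62-fold higher, adjusted p = 0.000182).

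Several genes of the light response were lower and 3 genes of chromophore supply higher. Arr2, the main arrestin, had 8.21, 8.14 and 8.06 in F1 males against 8.87, 8.98 and 8.999 in sucrose-exposed males (log2 -0.81 ± 0.07 SE, adjusted p = 1.7e-05). The scaffold inaD (log2 -0.79), the channels trpl (-0.60) and trp (-0.35) and the G protein Galphaq (-0.55) were lower. Of 19 phototransduction genes 9 fell and 4 rose, and 3 of the 4, ninaB, ninaD and ninaG, belong to carotenoid uptake and chromophore synthesis. The carotenoid oxygenase ninaB had 3.42, 3.21 and 2.92 in F1 males against 1.87, 2.24 and 1.85 in sucrose-exposed males (2.29-fold higher, adjusted p = 0.0003). The scavenger receptor ninaD, which takes up carotenoids in the gut, had 6.03, 6.24 and 6.06 in F1 males against 3.81, 5.34 and 4.02 in sucrose-exposed males (log2 1.72 ± 0.34 SE, adjusted p = 0.00317).

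Neuronal genes differed little. Of 30 neuron and synapse genes 7 fell and none rose (median -0.21). The decreases were 23.3% of the list, near the 19.0% of all genes. But 1 fell without replicate 3 of the F1 males, the array with the low median signal. There were 3 decreases after median centring, and 3 and 4 without replicates 3 and 2 of the sucrose-exposed males. The active zone gene Rim had the smallest p (log2 -0.39 ± 0.08 SE, adjusted p = 0.00436). The neuron markers elav, nSyb and brp were not called, nSyb having 5.01, 4.99 and 4.78 in F1 males against 4.82, 4.90 and 5.02 in sucrose-exposed males.

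Among 15 dopamine and other amine genes, 4 rose and none fell. Enzymes of pigment and amine metabolism led them: e, which joins dopamine to beta-alanine (1.48-fold, adjusted p = 0.00193), and Pu, which starts the synthesis of the cofactor of tyrosine hydroxylase (1.37-fold). DAT, the dopamine transporter and known target of methylphenidate, had 1.53, 1.26 and 0.99 in F1 males against 0.77, 0.98 and 0.92 in sucrose-exposed males (log2 0.37 ± 0.11 SE, adjusted p = 0.0335), a call lost under 6 of 15 settings, among them leaving out replicate 1 or 2 of the F1 males or replicate 1 or 3 of the sucrose-exposed males. The call of speck (log2 0.29, limma adjusted p = 0.0393) was lost under 8 of 16 settings. Increases in this list numbered 2 in a fit of the 2 groups only, 2 with the GAPDH covariate, and 2 to 4 when 1 array was left out. The tyrosine hydroxylase gene ple was dim and did not pass (-0.01 ± 0.08 SE), and neither did Ddc (-0.15 ± 0.10), Vmat (-0.02 ± 0.09) or the receptors Dop1R1 (-0.15 ± 0.09) and Dop2R (-0.38 ± 0.15).

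Of 31 neuropeptide genes 3 rose (9.68%) and 1 fell (3.23%), beside 8.63% and 19.0% of all genes. Nplp3 had 9.33, 9.50 and 9.19 in F1 males against 8.22, 8.18 and 8.10 in sucrose-exposed males (2.26-fold higher, adjusted p = 0.00171), and Nplp4 was 1.93-fold higher. The clock gene tim had 5.32, 5.29 and 5.18 in F1 males against 4.70, 4.72 and 4.79 in sucrose-exposed males (1.44-fold higher, adjusted p = 0.000594), and Clk (log2 -0.38), cwo (-0.30) and vri (-0.30) were lower among 14 clock genes, where 19.0% of all genes were. The call of cwo was lost under 8 of 16 settings and that of vri under 6. A single decrease was left without replicate 1 or 2 of the F1 males or replicate 3 of the sucrose-exposed males. The hour of collection is not stated for either group. Of 23 ecdysone and juvenile hormone genes 1 rose, JhI-21 (1.55-fold), and 1 fell, Kr-h1, a juvenile hormone response factor (log2 -0.47 ± 0.15 SE, adjusted p = 0.0401), whose call was lost under 8 of 16 settings, among them leaving out replicate 2 or 3 of the F1 males or replicate 1 or 3 of the sucrose-exposed males.

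The remaining lists gave few calls. Of 47 odorant-binding proteins 3 rose, Obp56e most (2.50-fold), and 1 fell. Of 165 chemoreceptors none rose and 4 fell, and 157 were dim; 2 fell without replicate 2 or 3 of the F1 males, 1 without replicate 3 of the sucrose-exposed males and none among the brighter 50% of probe sets. Of 19 metal genes 1 rose and 3 fell, with Ctr1C, a copper transporter, at -0.46. Of 14 heat shock genes 1 rose and 1 fell, and of 14 cell cycle genes, 7 of them dim, 1 fell, Orc2, a call lost under 12 of 14 settings and on leaving out any of the 6 arrays. LysX (log2 0.92, adjusted p = 0.0432) was the 1 lysozyme of 3 that passed, with 0.63, 2.29 and 0.68 in F1 males against 0.30, 0.19 and 0.34 in sucrose-exposed males. Its call was lost under 6 of 15 settings, among them leaving out any of the 3 arrays of sucrose-exposed males.

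Several of the largest differences were in genes outside the lists. Phu had 0.64, 0.29 and 0.13 in F1 males against 3.81, 2.94 and 2.88 in sucrose-exposed males (7.24-fold lower, adjusted p = 5.5e-06). Its F1 signal was at the floor of the array, so the size is understated. Other large decreases were CG3348 (3.31-fold), CG13912 (3.04-fold), CG1648 (2.18-fold), CG13607 (2.18-fold), CG17177 (1.85-fold), CG33773 (1.80-fold) and CG31055 (1.77-fold). Large increases were CG12998 (5.77-fold), CG15533 (5.30-fold), CG15369 (5.14-fold), CG16775 (4.38-fold), CG8736 (3.90-fold) and CG7953 (3.84-fold). Of the 30 largest differences, 28 were called under every alternative setting in which they were tested. There were 16 such settings, and 15 for phu, which a filter on dim probe sets removed. The exceptions were CG18179 and CG17177, whose F1 values of 3.41, 2.62 and 1.97 spread widely against 3.62, 3.54 and 3.51 in sucrose-exposed males (adjusted p = 0.0467, lost under 11 settings, among them leaving out any array but replicate 1 of the F1 males).

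The same generations were also sampled in the drug groups, F1 males of methylphenidate-exposed mothers against males given methylphenidate. These 6 arrays are none of those above. The 2 differences are set side by side as values, since in the second the drug itself, given to the exposed males and to the mothers, goes with the generation. There 1599 probe sets passed (8.52%), 894 higher (4.76%) and 705 lower (3.76%). Of the 1188 increases between the sucrose groups, 519 (43.7%) were called higher and 48 lower there. Of the 2666 decreases, 260 (9.75%) were called lower and 11 higher. The 779 calls in the same direction were 20.2% of the calls between the sucrose groups and 48.7% of those between the drug groups. Of the 3854 calls, 86.6% had the same sign, as had 64.7% of all probe sets.

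Some storage and cuticle genes and most gut peptidases were called higher in F1 males of the drug groups. Of all 11982 genes, 6.34% were called higher and 5.03% lower there, and 2.87% had an interaction past the threshold, 0.918% upward and 1.95% downward. Fbp2 differed by 3.60 there and 2.82 between the sucrose groups, Acp65Aa by 3.502 and 2.69, and AGBE by 1.20 and 1.05. Of 11 storage genes 5 were called higher and 1 lower there, and of 105 cuticle genes 15 higher and 2 lower (median 0.06). Gut peptidases gave 18 increases and no decrease in the drug groups (median 0.89), muscle genes 17 increases (median 0.61) and seminal fluid genes 23 (median 0.35). For 6 of the 26 peptidases the difference was higher in the drug groups by the interaction test (adjusted p under 0.05), for example epsilonTry (interaction log2 1.27), and for 1, etaTry, it was lower (-0.80).

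Carbohydrases and several sugar-sensing genes differed between the 2 comparisons. Of the 18 carbohydrases 2 rose and 1 fell between the drug groups (median 0.11), and for 10 the difference was lower there by the interaction test. Mal-A4 differed by 0.74 between the drug groups and 2.14 between the sucrose groups (interaction adjusted p = 0.0195). AkhR was higher in F1 males of the drug groups (0.55, adjusted p = 0.0069) and lower in those of the sucrose groups (-0.9996), with interaction adjusted p = 7.9e-05, and Jabba likewise (0.56 and -1.16, interaction adjusted p = 3.5e-06). For sug the difference was -0.51 in the drug groups and -2.01 in the sucrose groups (interaction adjusted p = 0.000837). Of the 8 probe sets over 2-fold lower between the sucrose groups, 7 had an interaction past the threshold, against 34 of the 135 over 2-fold higher. Over all probe sets the share was 2.09%. Both sets were chosen for a large difference between the sucrose groups, which enters the interaction with a minus sign. That choice favours a called interaction, so these counts are given as values only.

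Of the testis genes 2 of 52 fell between the drug groups (median -0.16). None of the 52 had an interaction past the threshold in limma, so for no single gene are the differences shown to be unequal. At an unadjusted p under 0.05 in that test there were 26 of the 52, beside 2363 of all 11982 genes. Whether the list as a whole differed between the 2 comparisons was not tested. The interaction passed for 393 probe sets (2.09%) in all, 126 upward (0.671%) and 267 downward (1.42%). Of these, 249 were also called between the sucrose groups, whose arrays enter both tests. Among the glutathione S-transferases 11 of 34 and among the P450 genes 23 of 83 had a lower difference in the drug groups.

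**Figure D5:**
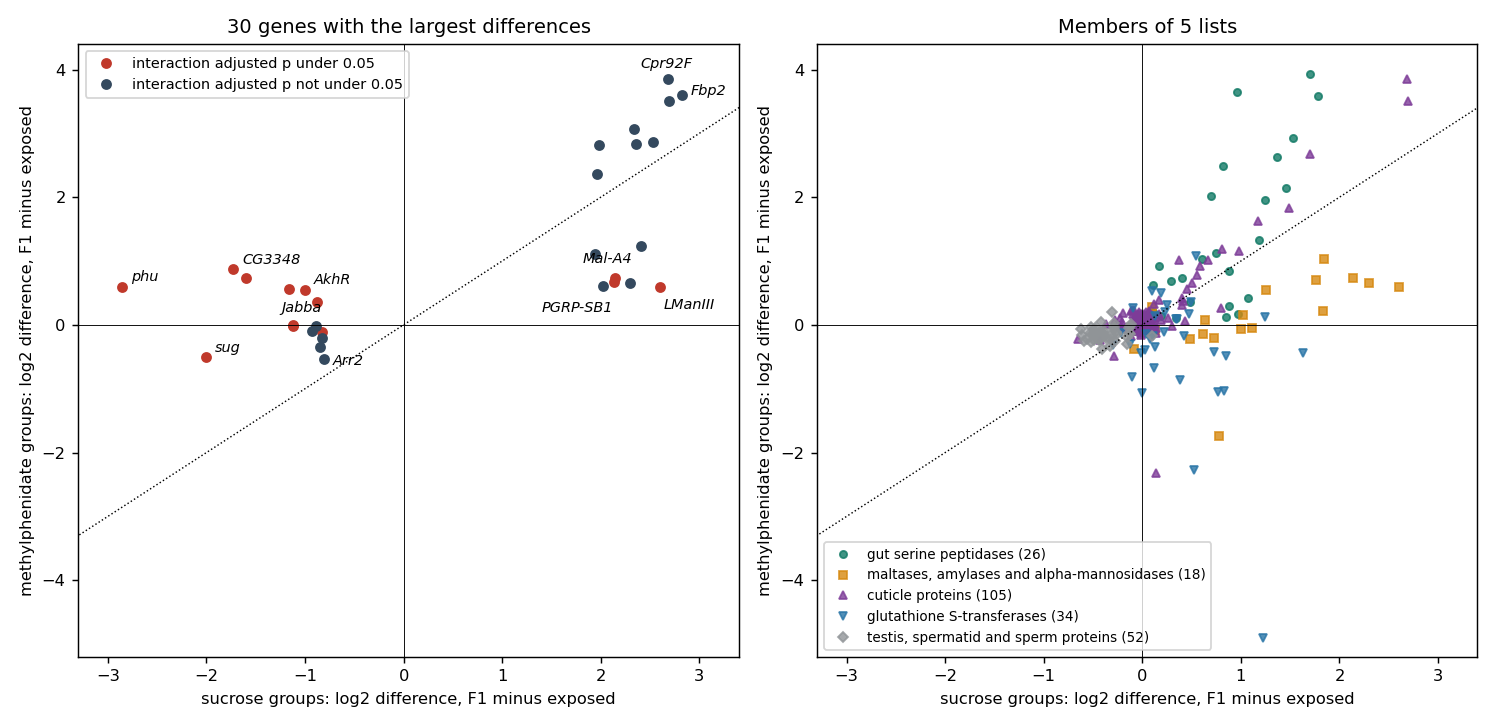
Log2 difference F1 minus exposed males in the sucrose groups (x axis) against the same difference in the methylphenidate groups (y axis), for the 30 genes with the largest differences (left, red where the interaction adjusted p was under 0.05) and for the members of 5 lists (right); the dotted line marks equal differences. Among the 30 genes phu, CG13912, CG3348, Jabba, AkhR and Lsd-1 lie below 0 on the x axis and above 0 on the y axis. Of the 18 carbohydrases 10 had a lower difference in the methylphenidate groups by the interaction test.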

How the data were processed

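Total RNA of whole males was hybridised to 1-colour Affymetrix Drosophila Genome 2.0 arrays, 12 in all. The authors deposited 1 log2 signal for each probe set and array. RMA, affy and limma are named, without versions or settings, per the submitters' processing notes. The log base was checked on the spike-in controls, whose increase between BioB and Cre was 0.944 of the nominal log2 ratio. Values near 0 are the floor, and low signals understate differences.

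The arrays hold 18952 probe sets, of which 183 are controls; the other 18769 were tested with no filter. The array's annotation, updated through RefSeq, gave 1 gene to 13647, several to 402 (never named) and none to 4720. Where a gene had several probe sets, the one with the highest mean signal stood for it in the lists. Means of the 4 groups were fitted on all 12 arrays (limma 3.58.1, R 4.3.3: lmFit, contrasts.fit and eBayes), two-sided, with Benjamini-Hochberg adjustment over the 18769. The contrasts were F1 minus exposed males in the sucrose groups, the same in the methylphenidate groups, and their difference (interaction). On simulated data with known changes between the sucrose groups, 85.1% of log2 differences of 0.5 and 100% of those of 1 and 2 were recovered. There were 7 false calls among 18769 probe sets. The changes of 0.5, 1 and 2 were planted in 67, 67 and 66 probe sets. Noise was drawn independently for each value, with no shift shared within an array, so these rates need not hold for the real arrays. The number of arrays limits the precision.

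The comparison and the 43 gene lists were chosen with earlier results of these data known. Named genes were the 15 largest increases and decreases past the threshold without overlap of the 3 and 3 values, up to 4 members per list with the smallest p, and markers; list members named beyond these were chosen after their values were seen. A list counts its genes that have a probe set of their own. The alternatives tried were a fit of the 2 sucrose groups only, a replicate block, filters on the dimmest 30% and 50%, quantile normalization, median centring, eBayes with trend and robust, array weights, a table with 1 probe set per gene, the GAPDH difference as a covariate, and each array left out in turn. Figures come from Python 3.11.15 with matplotlib 3.10.9.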

Additional observations from a re-analysis of the deposited data

Results flagged for a closer look

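For 39 of the named genes the difference between generations was not the same in the methylphenidate groups as in the sucrose groups, by limma's test of the interaction (adjusted p under 0.05 over all probe sets). Over all 11982 genes 344 (2.87%) had such an interaction. Values are the log2 difference in the methylphenidate groups minus that in the sucrose groups. The same value is the difference between the methylphenidate and sucrose groups in F1 males minus that in exposed males. For phu the means were 0.735 in F1 males of methylphenidate mothers and 0.356 in F1 males of sucrose parents, and 0.140 in methylphenidate-exposed and 3.21 in sucrose-exposed males. Most of the named genes were chosen for their difference between the sucrose groups, which enters the interaction with a minus sign, so that choice favours interaction values of the opposite sign.

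Positive values belonged mostly to genes that were lower in F1 males of the sucrose groups. They were 3.45 for phu, 2.60 for CG3348, 2.34 for CG13912, 1.73 for Jabba, 1.55 for AkhR, 1.50 for sug, 1.24 for Lsd-1, 1.12 for CG13607, 1.10 for CG1648, 0.71 for cbt, 0.61 for Rim, 0.50 for Ctr1C, 0.45 for Galphaq and 0.41 for Ir100a. For shd, an ecdysone-activating P450 that was not called in the sucrose groups, the value was 0.80. For fit (2.80), mag (1.68) and epsilonTry (1.27), which were higher in F1 males of the sucrose groups, the difference was larger still in the methylphenidate groups.

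Negative values belonged to genes that were higher in F1 males of the sucrose groups. Among detoxification genes they were -2.88 for Ugt35C1, -2.07 for GstD5, -1.69 for Ugt37B1, -1.46 for Cyp309a1, -1.33 for GstE5, -1.15 for GstE6 and -1.12 for GstD8. Among carbohydrase and gut genes they were -2.01 for LManIII, -1.41 for Mal-A4, -1.06 for Mal-A2, -0.70 for Mal-A1, -0.80 for etaTry and -1.31 for PGRP-LB. Among genes of one-carbon and purine metabolism they were -1.65 for Gart, -1.12 for Cth, -1.10 for pug, -1.02 for Adsl and -0.98 for Pfas. CG16775 (-1.47), Sodh1 (-1.32) and Vha100-5 (-0.83) completed them.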

How the results depend on the processing

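Between the sucrose groups 2604 to 4114 probe sets were called over all 16 settings, and no probe set called both here and under a setting changed direction. With the GAPDH covariate 695 were higher and 1909 lower. Leaving out 1 array gave 2711 to 4006 calls, 823 to 1159 higher and 1725 to 2929 lower; the 1725 came without replicate 3 of the F1 males. Between the methylphenidate groups leaving out 1 array gave 873 to 1560 calls, 549 to 882 higher and 324 to 678 lower, the fewest without replicate 3 of the exposed males. Without replicate 1 of the F1 males there were 1038 calls, and without replicate 2 of them 399 were lower. The interaction passed for 616 probe sets (286 higher) with trend and robust settings and for 209 (77 higher and 132 lower) with the GAPDH covariate. Leaving out 1 array gave 241 to 538, with 62 to 279 higher and 171 to 263 lower. In the sucrose groups it was 538 without F1 replicate 1, 260 and 258 without F1 replicate 2 or replicate 3 of the exposed males, and 244 and 241 without replicates 2 and 3 of the F1 males of methylphenidate mothers. The cause of these shifts was not tested. With the replicate number as a block 3571, 1427 and 311 probe sets were called in the 3 contrasts; same-numbered arrays did not deviate together (r between -0.0214 and 0.0167), so the numbers were not taken as pairs. Of 179 called genes named, 136 were called under all settings run and none reversed direction. Small differences of dim genes are limited by the floor of the arrays.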
